A study of Mus musculus with 19 samples.

Results

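The integrin genes described here are a set of 10 cell surface receptor genes, out of 24996 genes named in the deposited gene tables. They were taken by gene symbol and are Itgax (CD11c), Itgam (CD11b), Itgal (CD11a), Itgb2 (CD18), Itgav, Itgb5, Itga4, Itga6, Itga5 and Itgb1. Integrins are pairs of an alpha and a beta subunit that span the membrane, bind matrix proteins or counter-receptors outside the cell and link them to the actin cytoskeleton inside it. The alpha subunits encoded by Itgax, Itgam and Itgal pair with the beta subunit of Itgb2 to form the leukocyte integrins, which serve adhesion, uptake of complement-coated particles and synapse or debris clearance. Itgb1 pairs with Itga4, Itga5, Itga6 and Itgav, whose products bind VCAM-1 and fibronectin, fibronectin, laminin, and vitronectin or osteopontin in that order, and Itgb5 pairs with Itgav.

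Acetylation of histone H3 at lysine 27 (H3K27ac) marks promoters and enhancers in use, and it was profiled by ChIP-seq in microglia, the resident macrophages of the brain, sorted from C57BL/6 mice. Cuprizone, a copper-binding toxin under which oligodendrocytes die and myelin is lost, was fed at 0.2% for 5 weeks. The labels give the mice as 4 to 6 weeks old, whereas the methods start the diet after a course of tamoxifen, given to WT and KO mice, and a pause, so the age at the start of the diet is not settled. The 4 groups with peak values were WT CD11c-high and WT CD11c-low (PRMT1Ifl/fl, cuprizone), KO CD11c-low (PRMT1fl/fl; cx3r1cre-ert2, cuprizone) and WT basal (PRMT1Ifl/fl, normal diet, 11 weeks), with 2 H3K27ac libraries each. KO mice lose the arginine methyltransferase PRMT1 in cells in which the Cx3cr1 promoter drives a tamoxifen-inducible Cre, so other Cx3cr1-expressing myeloid cells carry the deletion too, and WT mice carry the floxed allele without Cre. Each assay used microglia sorted as CD11b-positive and CD45-intermediate, so Itgam, which encodes CD11b, was part of the gate for all cells, and Itgax, which encodes CD11c, set the gate between CD11c-high and CD11c-low cells. Levels of Itgam and differences of Itgax between the CD11c gates are therefore given as a description of the sort.

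The deposited peak lists hold regions that passed the authors' thresholds in 1 of 5 comparisons, so a region that is not listed has no value here. Depth was lower in WT basal, at 56.2% and 85.1% of the mean of the 8 libraries, than in the 6 cuprizone libraries, at 100.0% to 118.0%. The 2 KO CD11c-low libraries differed from each other more than other replicates did, with a chi-square per listed peak of 9.73 in KO against 1.65 in WT CD11c-low and of 5.39 in KO against 1.42 in WT CD11c-high, where counting noise alone gives about 1. The WT basal libraries came next, with 3.3 beside 2.24 in WT CD11c-low and 3.96 beside 1.7 in WT CD11c-high. No listed peak was assigned to Prmt1 or Cx3cr1, so the deletion could not be checked from these lists. Of the markers of other cells, 3 of 4 endothelial (Flt1, Pecam1 and Vwf), 1 of 6 monocyte and border macrophage (F13a1), 1 of 5 dendritic cell (Xcr1) and 1 of 4 oligodendrocyte genes (Mbp) had a listed peak that was higher than in WT basal for both cuprizone gates of WT cells. Pecam1 and the oligodendrocyte gene Mog had a lower one for both gates, Lyve1 had one with WT CD11c-high cells only, and the astrocyte gene Slc1a3 had a higher and a lower one with those cells. The neutrophil, lymphocyte and neuron markers had no listed peak in any comparison. Lower peaks were listed for 3 of 8 microglial markers with WT CD11c-high cells against WT basal and for 1 of 8 with WT CD11c-low cells. Their part in the integrin results was not tested.

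Of the 14035 listed peaks, 27 were assigned to 6 of the 10 integrin genes. Itga5 had 10, Itga4 6, Itgax 5, Itgam 3, Itgal 2 and Itga6 1, counting a region again in each comparison that lists it. Itgb2, Itgav, Itgb5 and Itgb1 had none, so all 6 genes with a listed peak encode alpha subunits and the 3 beta subunits of the set had none. With 3 beta subunits, no contrast between the subunit types is read from this. In all, 4738 genes had a listed peak in some comparison, and shares over genes are given with the comparisons below. Of the 27 peaks, 12 lay over 10 kb from the assigned transcription start and 2 were annotated as promoter. Among all listed peaks, taken by comparison and direction, 62.8% to 76.8% lay over 10 kb away and 1.8% to 8.16% were annotated as promoter. The plot of peak size by distance shows the 27 integrin peaks.

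**Figure D1:**
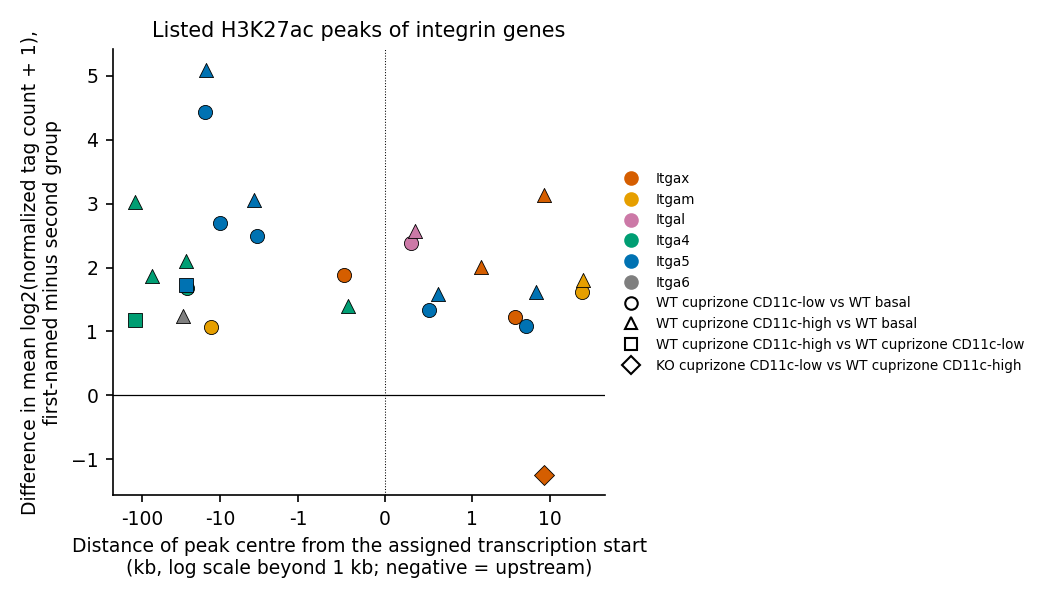
Difference in mean log2(normalized tag count + 1), first-named minus second-named group, of the 27 listed integrin peaks (y axis) against the distance of the peak centre from the assigned transcription start in kb (x axis, log scale beyond 1 kb). Colours mark genes and symbols mark comparisons; 26 peaks lie above 0 (6 of them fall below it when scaled to the listed peaks by TMM), the highest being the Itga5 region about 15 kb upstream (4.44 and 5.10), and the Itgax region 8.4 kb into the gene lies below 0 (-1.25) for KO CD11c-low set against WT CD11c-high.

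The regions on which these results turn are shown as sequence, the promoters from RefSeq (GRCm38.p6, the mm10 build; 7 of the 10 genes had an entry, Itgal, Itgb2 and Itga6 did not) and the centres of 3 distal peaks from the same assembly. Capitals mark matches, on either strand, to 5 short motifs of factors that act in myeloid cells: PU.1 (GAGGAAGT), AP-1 (TGANTCA), the interferon-stimulated response element (GAAANNGAA), the MiT/TFE E-box (CACGTG) and RUNX (TGTGGT). In the Itgax promoter, chr7:128129300-128129599 on the plus strand, which both the WT CD11c-low and the WT CD11c-high peak cover, there was 1 AP-1 and 1 RUNX match.
Itgax promoter: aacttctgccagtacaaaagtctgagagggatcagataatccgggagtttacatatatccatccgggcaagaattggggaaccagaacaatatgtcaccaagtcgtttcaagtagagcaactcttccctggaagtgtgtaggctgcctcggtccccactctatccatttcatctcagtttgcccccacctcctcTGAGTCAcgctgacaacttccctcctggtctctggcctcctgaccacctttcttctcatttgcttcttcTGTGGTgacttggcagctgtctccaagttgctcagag
The Itga4 promoter, chr2:79255176-79255475 on the plus strand, lies in a peak that was listed for WT CD11c-high against WT basal and had 1 RUNX match.
Itga4 promoter: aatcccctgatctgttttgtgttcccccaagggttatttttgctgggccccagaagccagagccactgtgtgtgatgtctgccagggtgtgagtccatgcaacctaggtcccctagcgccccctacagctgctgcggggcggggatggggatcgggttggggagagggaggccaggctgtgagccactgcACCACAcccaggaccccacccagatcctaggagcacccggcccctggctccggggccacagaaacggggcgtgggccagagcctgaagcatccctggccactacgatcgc
The centre of the distal Itga4 peak, chr2:79132067-79132366 and given on the plus strand, is from the region that separated WT CD11c-high from WT CD11c-low, and had 1 E-box match.
Itga4 upstream region: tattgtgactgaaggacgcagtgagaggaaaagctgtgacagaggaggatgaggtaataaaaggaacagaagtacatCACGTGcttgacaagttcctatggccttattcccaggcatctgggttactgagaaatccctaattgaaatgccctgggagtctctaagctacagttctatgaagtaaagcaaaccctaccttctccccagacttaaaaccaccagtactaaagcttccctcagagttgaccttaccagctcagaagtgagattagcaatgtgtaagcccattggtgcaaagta
The centre of the Itga5 peak with the largest difference in WT CD11c-low against WT basal, chr15:103382377-103382676 and given on the plus strand, had 1 RUNX match beside a long run of A.
Itga5 upstream region: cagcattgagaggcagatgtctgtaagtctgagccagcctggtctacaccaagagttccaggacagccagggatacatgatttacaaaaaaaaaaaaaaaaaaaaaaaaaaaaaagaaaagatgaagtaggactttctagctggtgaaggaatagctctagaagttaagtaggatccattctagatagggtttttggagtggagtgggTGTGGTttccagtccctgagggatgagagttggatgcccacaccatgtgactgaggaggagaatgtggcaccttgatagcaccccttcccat
The centre of the Itgax intron peak that was lower in KO CD11c-low than in WT CD11c-high, chr7:128137807-128138106 and given on the plus strand, held none of the 5 motifs.
Itgax intron region: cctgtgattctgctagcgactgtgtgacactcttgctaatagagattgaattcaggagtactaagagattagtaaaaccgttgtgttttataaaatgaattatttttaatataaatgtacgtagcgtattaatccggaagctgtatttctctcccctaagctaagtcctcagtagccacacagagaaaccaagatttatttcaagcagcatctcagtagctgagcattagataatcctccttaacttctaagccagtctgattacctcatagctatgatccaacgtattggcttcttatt
Matches of different motifs did not overlap in these stretches, and the Itga5 promoter held none of the 5. Over 32851 RefSeq promoters of the same length, 3.2% held the PU.1 motif, 7.81% AP-1, 8.56% the interferon-stimulated response element, 7.15% the E-box and 16.8% RUNX. The same shares over the centres of the 7520 peaks listed for WT CD11c-high against WT basal were 5.51%, 11.2%, 11.1%, 4.72% and 22.5%. A match describes the letters only and is not evidence of binding.

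The first question was how H3K27ac at integrin genes differed from WT basal in microglia sorted as CD11c-low after cuprizone. In WT CD11c-low against WT basal, 11 peaks of 5 integrin genes were listed, all higher in WT CD11c-low, and none was lower. Of 11911 genes with a pooled RNA count of at least 10 in some gene table, 16.4% had a higher listed peak in this comparison and 2.44% a lower one, against 5 and 0 of the 10 integrin genes. All 11 integrin peaks passed limma at an adjusted p under 0.05, as did 100.0% of the 4886 listed peaks, which the authors had already chosen on this contrast, so passing is no independent result. Their median difference was 1.68 on the log2(normalized tag count + 1) scale, beside 1.66 for all 4334 higher listed peaks, and it ran from 1.07 to 4.44. Scaled to the listed peaks themselves (TMM), which sets the median listed peak near 0, 4 of the 11 were called higher and 3 lower. The Itgax exons (-0.30), Itgam upstream (-0.45) and the Itga5 gene start (-0.19) and intron (-0.44) then turned negative. The calls at the Itga5 gene start, the Itga4 region (0.16), Itgal (1.04) and the Itgam intron (0.10) were lost, with edgeR adjusted p between 0.0668 and 0.779. In bulk chromatin, more acetylation in each cell and more cells that carry it cannot be told apart.

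Itgax was acetylated at its start in both groups. Its promoter peak (chr7:128127333-128130827) had 651.15 and 676.61 normalized tags in the WT CD11c-low libraries against 202.04 and 157.2 in WT basal. The groups did not overlap, and the means of 664 ± 18.0 and 180 ± 31.7 tags (SD, n = 2 each) gave a log2 difference of 1.89 (SE 0.213). A neighbouring peak over the following exons (chr7:128131505-128134770) had 596.23 and 580.31 tags in WT CD11c-low and 271.03 and 229.84 in WT basal, a difference of 1.23 (SE 0.209). Both regions thus carried over 100 reads in both WT basal libraries, from 123 at the promoter to 212 over the exons.

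Itgal, the alpha subunit of LFA-1, which binds ICAM proteins, had 1 small peak of 500 bp just inside the gene (chr7:127296307-127296807). It held 45.5 and 33.5 tags in WT CD11c-low against 9.86 and 4.34 in WT basal, where these values stood for only 6 and 4 reads. The difference of 2.39 (SE 0.448) was thus larger than at either Itgax peak, from far fewer reads. Itgam, the alpha subunit of complement receptor 3, had 2 peaks. One, 13.3 kb upstream in intergenic sequence (chr7:128047293-128051447), had 637.81 and 553.51 tags in WT CD11c-low and 320.31 and 248.27 in WT basal, with the smallest difference of the 11 peaks, 1.07 (SE 0.218). The other, in intron 12 (chr7:128087387-128090623), had 371.08 and 339.14 tags in WT CD11c-low against 129.77 and 100.83 in WT basal, a difference of 1.62 (SE 0.215). No Itgam promoter peak was listed.

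Itga5, the alpha subunit of the fibronectin receptor, had 5 of the 11 peaks. The most distal of these, 15.7 kb upstream (chr15:103381652-103383401), had 188.28 and 160.78 tags in WT CD11c-low against 6.57 and 7.59 in WT basal. In reads these were 240 and 192 against 4 and 7, so the region was close to empty in WT basal and the difference of 4.44 (SE 0.328) was the largest of any integrin peak in this comparison. The peaks 10.0 kb and 3.4 kb upstream followed with differences of 2.69 (SE 0.457, from 2 and 6 reads in WT basal) and 2.50 (SE 0.353). The peak at the gene start (chr15:103364709-103367859), by contrast, had 475.42 and 370.13 tags in WT CD11c-low and 182.33 and 151.78 in WT basal, a difference of 1.33 (SE 0.216), and the intron peak 5.1 kb downstream differed by 1.08 (SE 0.236). At Itga5 the 3 upstream regions therefore differed more than the 2 at or within the gene. Itga4, the alpha subunit of VLA-4, had a single 500 bp peak 26.9 kb upstream with 34.52 and 34.33 tags in WT CD11c-low against 18.07 and 5.42 in WT basal, a difference of 1.68 (SE 0.474), the largest SE of the 11. That difference was 0.89 without WT basal replicate 2 and 2.46 without WT basal replicate 1.

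The same question was then put to the microglia sorted as CD11c-high, whose comparison shares the WT basal libraries with the one above. In WT CD11c-high against WT basal, 13 peaks of 6 integrin genes were listed, again all higher in WT CD11c-high. Among the 11911 genes, 19.5% had a higher listed peak and 7.3% a lower one, against 6 and 0 of the 10 integrin genes. All 13 passed limma, as did 100.0% of the 7520 listed peaks, and their median log2 difference was 2.01, beside 1.92 for all 5571 higher listed peaks. The difference ran from 1.24 to 5.10. With TMM scaling 8 were called, all higher, and the Itga4 promoter (-0.09) and Itga6 (-0.20) turned negative. These calls, the Itga4 region 74.9 kb upstream (0.47) and the Itga5 gene start (0.10) and intron (0.15) were lost, with edgeR adjusted p between 0.214 and 0.577. Of the 11 peaks listed for WT CD11c-low, 9 (81.8%) overlapped a peak listed for WT CD11c-high, and 8 of the 13 (61.5%) the other way round.

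**Figure D2:**
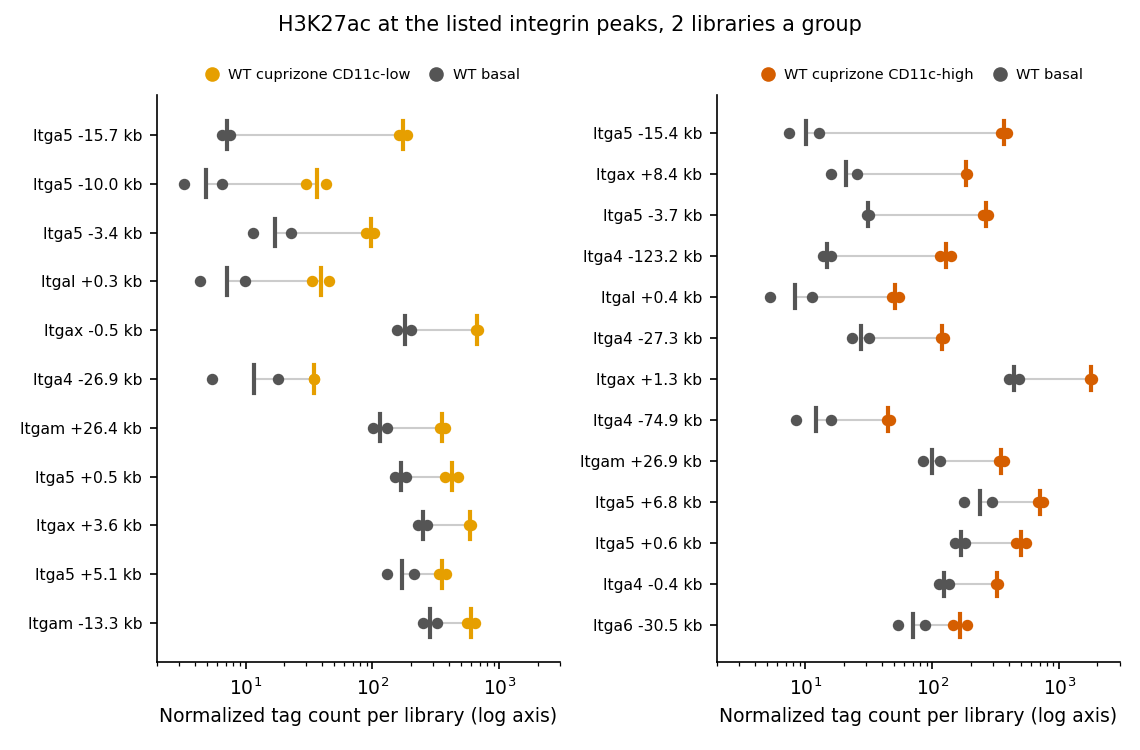
Normalized tag count in each library (x axis, log scale) at the integrin peaks listed for WT CD11c-low against WT basal (left panel) and WT CD11c-high against WT basal (right panel). Points are libraries (n = 2 a group), vertical bars are group means and row names give the gene and the distance from its assigned start; in every row both cuprizone libraries lie above both WT basal ones, widest apart in the top row of each panel, Itga5 (left, 188.28 and 160.78 against 6.57 and 7.59 in WT basal).

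At Itgax, the 2 regions at the gene start were merged into 1 peak of 7786 bp (chr7:128126984-128134770). It had 1801.49 and 1754.72 tags in WT CD11c-high against 485.66 and 398.58 in WT basal, the highest count of any integrin peak, and a difference of 2.01 (SE 0.225). A further peak, in intron 14 and 8.4 kb into the gene (chr7:128136687-128139225), had 187.53 and 183.78 tags in WT CD11c-high against 25.56 and 15.82 in WT basal. Its difference of 3.14 (SE 0.289) exceeded that at the gene start, and no peak was listed there for WT CD11c-low. Since CD11c itself set the gate, these Itgax values describe the sorted cells.

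Itga4 had 4 listed peaks in the CD11c-high list, against 1 in the CD11c-low list. Its promoter (chr2:79253332-79256675) had 319.95 and 329.11 tags in WT CD11c-high against 134.2 and 113.88 in WT basal, a difference of 1.39 (SE 0.202). The 3 upstream regions differed more. The most distal, 123.2 kb upstream (chr2:79131294-79133138), had 114.65 and 141.48 tags in WT CD11c-high against 15.98 and 13.71 in WT basal, a difference of 3.02 (SE 0.303). The regions 74.9 kb and 27.3 kb upstream differed by 1.86 (SE 0.405) and 2.10 (SE 0.281). At Itga5 the region 15.4 kb upstream had 390.16 and 346.79 tags in WT CD11c-high against 12.78 and 7.38 in WT basal, or 439 and 451 reads against 8 and 7, and again gave the largest difference, 5.10 (SE 0.296). The region 3.7 kb upstream had 276.4 and 252.98 tags in WT CD11c-high against 30.35 and 31.63 in WT basal, a difference of 3.05 (SE 0.23), whereas the peaks at the gene start and in the intron differed by 1.58 (SE 0.207) and 1.62 (SE 0.244).

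Of the other genes, Itgal had 54.21 and 47.67 tags near its start in WT CD11c-high against 11.18 and 5.27 in WT basal, a difference of 2.57 (SE 0.43). The Itgam intron region had 364.39 and 334.49 tags in WT CD11c-high and 115.03 and 84.35 in WT basal, a difference of 1.81 (SE 0.217). Itga6, the alpha subunit of laminin receptors, had an assigned peak here only, although a region in its intron 20 assigned to Pdk1 was higher in both gates. The assigned peak had 144.87 and 186.08 tags in WT CD11c-high against 87.87 and 53.78 in WT basal. Its difference of 1.24 (SE 0.266) was the smallest of the 13. That Itga6 peak (chr2:71755321-71757496) is given 30.5 kb upstream of an assigned start but lies inside the gene, 10.8 kb past the start of its GENCODE M21 model. The CD11c-low and CD11c-high lists were scaled separately, so these values are not compared with those of the preceding comparison.

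WT CD11c-high and WT CD11c-low were compared directly to ask what set the CD11c-high cells apart. Only 2 integrin peaks were listed, both higher in WT CD11c-high, at Itga4 and Itga5, so 2 of the 10 genes had a higher peak beside 1.13% of the 11911 genes, and 0 of the 10 a lower one beside 1.15%. Both passed limma with 100.0% of the 449 listed peaks. The distal Itga4 region 123.2 kb upstream had 142.28 and 175.59 tags in WT CD11c-high against 52.08 and 91.98 in WT CD11c-low, a difference of 1.18 (SE 0.186, limma adjusted p = 9.39e-10). The 2 libraries of each group did not overlap, but the difference was 0.77 without WT CD11c-low replicate 1 and was 1.58 without WT CD11c-low replicate 2 (limma adjusted p of 0.00661 and 0.00122). A region 27.4 kb upstream of Itga5 (chr15:103393829-103394454) had 48.53 and 39.13 tags in WT CD11c-high against 15.15 and 10.11 in WT CD11c-low, a difference of 1.73 (SE 0.363, limma adjusted p = 2.83e-06), from 44 and 41 reads against 16 and 10. With 2 libraries a group, an exact two-sided permutation test cannot go below p = 0.333, so these p-values rest on limma's spread over all listed peaks.

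No Itgax peak was listed between the CD11c-high and CD11c-low gates. Set side by side as reads divided by relative depth, the merged start region held 2010 and 1950 in WT CD11c-high against 541 and 444 in WT basal, while the 2 start regions of the CD11c-low list together held 1350 and 1360 in WT CD11c-low against 513 and 419 in WT basal. The regions differ in extent, so no test was made. The distal Itga4 region, with identical coordinates in both lists, held 128 and 158 in WT CD11c-high, 46.8 and 82.6 in WT CD11c-low and 17.8 and 15.3 in WT basal on this scale. All 3 groups were separate there.

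In KO CD11c-low against WT CD11c-low, which differ in genotype within the same gate, no integrin peak was listed in either direction. That was 0 of 10 genes, where 1.2% of the 11911 genes had a higher and 0.26% a lower listed peak, with 271 listed peaks in all, 100.0% of which passed limma. Values for the integrin regions below the authors' thresholds are not in the lists. Only the KO mice carry Cre, so its part cannot be told apart from loss of PRMT1. The paper also reports fewer CD11c-positive microglia in KO than in WT under cuprizone. The CD11c-low gate may therefore take a different part of the cells in each genotype. With KO CD11c-low set against WT CD11c-high, 1 integrin peak was listed, beside 1.88% of genes with a lower listed peak. It was the Itgax intron region 8.4 kb into the gene, with 114.11 and 76.21 tags in KO CD11c-low against 225.05 and 220.55 in WT CD11c-high. The difference was -1.25 (SE 0.212, limma adjusted p = 0.00056), and 99.9% of the 909 listed peaks passed. Leaving out each KO library in turn gave -1.54 and -0.96.

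This comparison crosses genotype with the CD11c gate, and the 2 cannot be told apart in it. On the scale of reads divided by relative depth, the same region held 106 and 70.7 in KO CD11c-low. WT CD11c-high libraries held 209 and 205 there, and WT basal libraries 28.5 and 17.6. The KO CD11c-low libraries thus lay between the other groups, which did not overlap with them. WT CD11c-low has no value for this region, since it was listed in none of the 3 comparisons that include those cells.

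**Figure D3:**
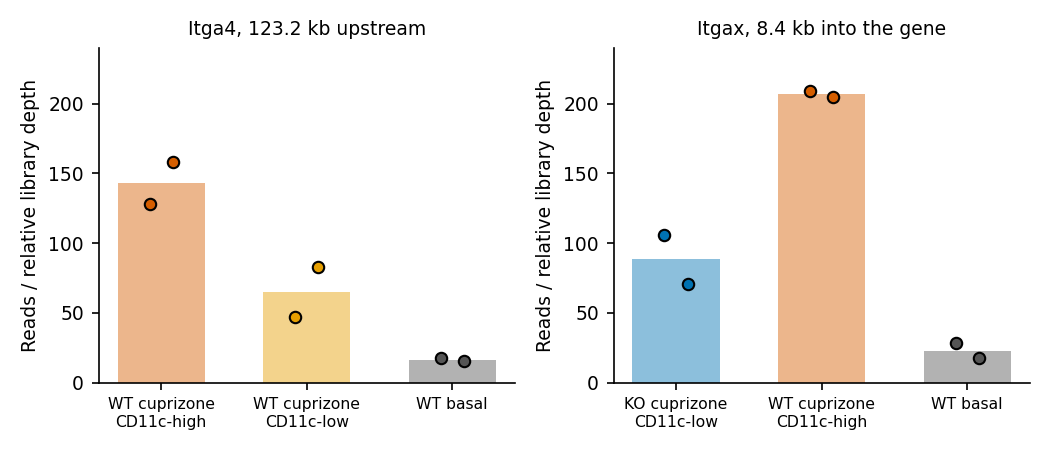
Reads divided by relative library depth (y axis) at the 2 integrin regions that have the same coordinates in 2 comparisons, the Itga4 region 123.2 kb upstream (left) and the Itgax intron region 8.4 kb into the gene (right). Bars are means of 2 libraries and points are libraries; WT CD11c-high libraries are highest in both panels (128 and 158, and 209 and 205), and WT basal lowest (17.8 and 15.3, and 28.5 and 17.6).

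The second data type was a set of 6 gene tables, each over the libraries of 2 groups, with transcript lengths and a mean normalized count per gene. They were taken as RNA because their rows are genes with transcript lengths, although the workbook's name says ChIP. Each mean pools both groups of its table, so no replicate error or test can be given, and the tables were normalized separately. Levels here are that mean per kilobase, scaled to a sum of 1000000 within a table. The table of WT basal and KO basal was set against the 3 tables that hold cuprizone groups only.

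Itgax and Itgal differed most. Itgax had a level of 331 in the table of WT CD11c-low and WT CD11c-high, 149 in that of WT CD11c-low and KO CD11c-low and 291 in that of WT CD11c-high and KO CD11c-low, against 18.0 in the basal table. On the log2 scale these are differences of 4.20, 3.05 and 4.01, and the lowest of the cuprizone levels belonged to the table without CD11c-high cells, which the gate on CD11c defines. Itgal, which no gate used, had levels of 53.7, 45.8 and 51.8 in the same 3 tables against 2.04 in the basal table, log2 differences of 4.72, 4.49 and 4.67. The Itgal levels were thus close to each other across the cuprizone tables whichever CD11c gate they held. In the basal table Itgal rested on a mean count of 9.528, under the minimum of 10 used for the gene shares. With genes under that count left out, Itgal had no difference to give, so the size of its difference is uncertain.

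Itga4 had levels of 17.3, 16.5 and 23.5 in the cuprizone tables against 5.16 in the basal one, and Itga5 had 153, 139 and 132 in the cuprizone tables against 69.4 in the basal one. These 4 genes were also among the 5 with higher H3K27ac peaks in both comparisons with WT basal. Itgam, the fifth, did not follow them, with levels of 428, 401 and 475 in the cuprizone tables against 445 in the basal table. Itgav, the vitronectin receptor alpha subunit, ran the other way, at 84.1, 120 and 133 in the cuprizone tables against 162 in the basal table.

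The levels of the beta subunits lay closer together. Itgb2 had levels of 432, 392 and 472 in the cuprizone tables and 337 in the basal table, Itgb5 had 525, 446 and 566 in the cuprizone tables and 470 in the basal table, and Itgb1 had 239, 237 and 271 in the cuprizone tables and 237 in the basal table. Itga6 was at 232, 241 and 278 in the cuprizone tables and 271 in the basal table. For Itgam, Itgb5, Itga6 and Itgb1 the direction differed between tables or with the scaling, and it is not read. In the basal table Itgb5 ranked first of the 10 and Itgal last, while in the table of WT CD11c-low and WT CD11c-high Itgax had moved to rank 4, behind Itgb5, Itgb2 and Itgam. The mixed tables lay between, with Itgax at 64.7 for WT basal with WT CD11c-low and 137 for WT basal with WT CD11c-high.

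**Figure D4:**
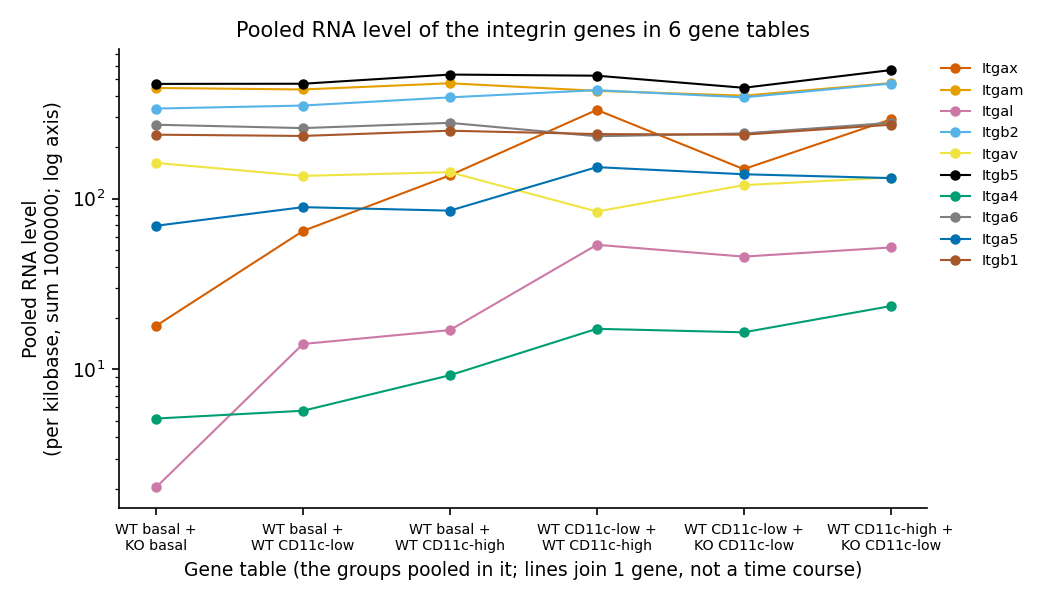
Pooled RNA level of the 10 integrin genes, per kilobase and scaled to a sum of 1000000 (y axis, log scale), in the 6 gene tables (x axis, named by the groups pooled in each). Each point is the authors' mean over the libraries of a table with no replicate error; Itgax (331 against 18.0) and Itgal (53.7 against 2.04) stand higher in the table of WT CD11c-low and WT CD11c-high than in the basal table, while Itgb1 stays between 233 and 271.

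Markers of other leukocytes, which also express these integrins, were read from the same tables. The 7 microglial markers found of 8 summed to between 4190 and 5590 in the 6 tables, none of them at 0. The 4 neutrophil markers, of which Ly6g was found in 1 table only, summed to between 27.9 and 463. The lowest neutrophil sum, 27.9, was in the table of WT CD11c-high and KO CD11c-low, where Itgal stood at 51.8, and the basal table had 336. The 6 monocyte and border macrophage markers summed to between 62.4 and 148, highest in the basal table, and the 5 dendritic cell markers to between 10.2 and 23.7, with Xcr1 at 0 in 1 table. The 4 endothelial markers summed to between 102 and 175. They moved apart, since Flt1 was at 82.3, 83.9 and 88.8 in the 3 cuprizone tables against 5.17 in the basal table, and Pecam1 at 18.7, 27.9 and 17.0 in the cuprizone tables against 80.4 in the basal table. The part of these cells in the integrin levels was not tested. The highest mean count per base of any gene was between 0.912 and 0.984, and the integrin values ran up to 0.457, for Itgb5, beside a 99th percentile between 0.422 and 0.494 over genes. Duplicate reads had been removed before counting, and their part in the levels was not tested.

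The remaining integrin subunits were set beside the 10. Among 11 other alpha subunits, none had a higher listed peak in any comparison. A pooled RNA count of at least 10 was reached by 5 of the 11. Over the 11911 genes at that count, 16.4% had a higher listed peak in WT CD11c-low against WT basal. In WT CD11c-high against WT basal it was 19.5%, so none among so few genes is not read as a contrast with the 10. Lower listed peaks were found for 2.44% and 7.3% of the 11911 genes in these comparisons. Itga9, whose product pairs with Itgb1 and binds tenascin and osteopontin, had a lower peak in all 3 WT comparisons, at different regions. In intronic sequence it had 55.1 and 38.45 tags in WT CD11c-high against 228.45 and 231.97 in WT basal, a difference of -2.30 (SE 0.241). Its peak for WT CD11c-low against WT basal differed by -1.13 (SE 0.35), and that for WT CD11c-high against WT CD11c-low by -1.12 (SE 0.247). Itgae, the CD103 alpha subunit, had 150.2 and 166.09 tags in WT CD11c-high against 412.17 and 327.93 in WT basal, a difference of -1.21 (SE 0.206). That Itgae region is upstream, at -12494 bp from the assigned start, and is annotated as intron 12 of transcript NM_025818. Pooled RNA levels in the table of WT CD11c-low and WT CD11c-high were 26.3 for Itga9 and 1.65 for Itgae, against 102 and 9.15 in the basal table. Of the 5 other beta subunits, 2 of which reached a pooled RNA count of 10, none had a listed peak. Itgb3, a partner of Itgav, had an RNA level of 77.0 in the table of WT CD11c-low and WT CD11c-high against 134 in the basal table.

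Genes that activate integrins or act after them were taken from lists. Of 23 activators and adaptors, 7 had a higher and 0 a lower listed peak in WT CD11c-low against WT basal. In WT CD11c-high against WT basal these were 8 and 1, beside the shares over the 11911 genes given above. Parvb, which links integrin-linked kinase to actin, had 251.52 and 250.67 tags in WT CD11c-high against 28.76 and 27.42 in WT basal. Rap1b, a small GTPase that switches integrins on, had 333.28 and 299.12 tags in WT CD11c-high against 78.28 and 62.21 in WT basal. Of 19 signalling genes, 9 had a higher and 1 a lower listed peak in WT CD11c-high against WT basal. With WT CD11c-low set against WT basal, 8 had a higher and 1 a lower one. Among these, Syk, a kinase that leukocyte integrins use, had 331.85 and 311.51 tags in WT CD11c-low against 72.28 and 48.79 in WT basal, and Fgr, a Src family kinase, had 171.03 and 145.71 tags in WT CD11c-low against 14.78 and 11.93 in WT basal.

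Of 23 ligands, 3 (Fn1, Spp1 and Vcam1) had a higher listed peak in both comparisons with WT basal. A pooled RNA count of at least 10 was reached by 18 of the 23. Over the 11911 genes at that count, 16.4% and 19.5% had a higher listed peak. Jam3, a junctional adhesion molecule, had a lower one, with 24.0 and 29.99 tags in WT CD11c-high against 92.66 and 80.14 in WT basal. Spp1, which encodes osteopontin, had 375.0 and 395.25 tags in WT CD11c-low against 70.63 and 41.2 in WT basal. Fn1, which encodes the fibronectin bound by the Itga5 product, had 74.53 and 48.57 tags in WT CD11c-low against 1.64 and 2.17 in WT basal. Of 11 surface partners, 5 (Cd44, Cd47, Cd63, Cd9 and Plaur) had a higher listed peak in both comparisons and none a lower one. Between the CD11c gates none of these 4 lists had a listed peak. In KO CD11c-low against WT CD11c-low, 2 of the 19 signalling genes, Ptk2b and Vav3, had a higher listed peak and 0 a lower one. The shares over the 11911 genes were 1.2% and 0.26%. Ptk2b, a kinase downstream of integrins, had 115.69 and 145.27 tags in KO CD11c-low against 51.54 and 70.02 in WT CD11c-low. With KO CD11c-low set against WT CD11c-high, the tetraspanin Cd9 had 78.58 and 65.73 tags in KO CD11c-low against 158.92 and 153.18 in WT CD11c-high. The adaptor Dok1 had 13.99 and 20.96 tags in KO CD11c-low against 52.26 and 53.52 in WT CD11c-high, at an intronic region 42181 bp from its assigned start.

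The genes most like Itgax could be sought in 1 comparison only, since its peak is annotated as promoter for WT CD11c-low against WT basal alone. Among the 254 other genes with a listed promoter peak there, Mir7009, Il23a, Adap1, Ifit2 and Dot1l came closest to the Itgax difference of 1.89, with values between 1.88 and 1.91. That measure is a single difference per gene and says nothing of shared control.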

How the data were processed

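H3K27ac ChIP-seq was made from sorted microglia, with 10 immunoprecipitated and 9 input samples, of which the 8 immunoprecipitated libraries of 4 groups have columns in the peak lists. Replicates were independent biological samples per the labels. Per the labels and the study's methods, the authors trimmed single-end reads, mapped them with Bowtie2, inspected them with FastQC 0.11.9, removed duplicates with SAMtools 0.1.19, and called, counted and annotated peaks with HOMER. The build is named as hg19 in the methods and as hg19 and mm10 in the submitters' processing notes; the coordinates are mouse, mm10. The deposited signal is a normalized tag count per peak and library, scaled by the authors within each comparison. The authors' fold changes and p-values, and the 19 per-library columns of the gene tables, which match no sample of this series, were not used. In the gene tables the deposited signal is the authors' mean count over the libraries of a table; rows without a gene name (505 to 542 a table, 0.784% to 1.01% of the summed means) were left out.

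All 14035 listed peaks were used. Values fell on whole multiples of a step fixed for each library (100.0% of them, within 0.006 divided by the step plus 0.003 reads), and these steps gave whole reads and relative depths. Absolute depth is not given in the sources used here. Counting noise only is covered by such reads, which carry no molecular identifiers. Each comparison was fitted with limma 3.58.1 (trend, R 4.3.3) on log2(value + 1) over all its listed peaks, Benjamini-Hochberg adjusted, 0.05 being the threshold. A fold change on this scale understates the change of low peaks. Alternatives were a pseudocount of 5, a filter at 50 tags, edgeR 4.0.16 and DESeq2 1.42.0 on the recovered reads, TMM scaling, a size threshold, a replicate block and leaving out each library. The fits were tested on simulated data. The integrin genes and the gene lists were chosen with earlier results of these data known. The text names every listed peak of the 10 genes and, from the lists, some of up to 3 genes per list and direction with the largest differences among peaks of at least 50 tags without overlap, plus Prmt1, Cx3cr1 and the genes closest to Itgax.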

Additional observations from a re-analysis of the deposited data

Results flagged for a closer look

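At the Itga4 region 123.2 kb upstream of the gene, H3K27ac differed between the WT cuprizone gates in the direct comparison. No peak was listed there for WT CD11c-low against WT basal, so no fitted difference of that gate from WT basal can be given. As reads divided by relative depth, the region held 46.8 and 82.6 in WT CD11c-low and 17.8 and 15.3 in WT basal. WT CD11c-high held 128 and 158 on this scale. The gap between WT CD11c-low and WT basal was not tested. The difference between the gates was 1.18 on the log2 scale, with 142.28 and 175.59 tags in WT CD11c-high against 52.08 and 91.98 in WT CD11c-low (limma adjusted p = 9.39e-10). The authors had listed the region on this same contrast, and 100.0% of the 449 listed peaks passed limma, so passing is no independent result. Without WT CD11c-low replicate 1 the difference was 0.77. The cause was not tested.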

How the results depend on the processing

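Directions and calls of the integrin peaks held with a pseudocount of 5 and with edgeR or DESeq2 on recovered reads. The replicate number as a block gave 11, 13, 2, 0 and 1 called integrin peaks in the 5 comparisons, the counts without it. Same-numbered libraries deviated together with correlations between -0.082 and 0.136 over the listed peaks, and with 2 pairs the numbers were not taken as pairing the samples. Leaving out each library in turn gave 11 in WT CD11c-low against WT basal, 13 in WT CD11c-high against WT basal, 2 in WT CD11c-high against WT CD11c-low, 0 in KO CD11c-low against WT CD11c-low and 1 with KO CD11c-low set against WT CD11c-high. With a log2 difference over 1.5 required, 7, 11, 1, 0 and 0 remained above the threshold. With the filter at 50 tags, 8, 12, 1, 0 and 1 integrin peaks were fitted and called in the 5 comparisons. In WT CD11c-low against WT basal it dropped the Itgal peak, the Itga4 peak and the Itga5 peak 10.0 kb upstream. The Itga4 region 74.9 kb upstream fell out in WT CD11c-high against WT basal, and the Itga5 region 27.4 kb upstream between the gates.

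TMM scaling over the listed peaks sets their median difference near 0 (0.02 and 0.06, against 1.56 in both edgeR fits scaled by recovered depth), although 88.7% and 74.1% of those lists are higher, so it describes a peak relative to the other listed peaks. Under it, 7 integrin peaks were called for WT CD11c-low (4 higher, 3 lower) and 8 for WT CD11c-high (8 higher) against WT basal. The difference turned at Itga5 in the gene start (-0.19) and intron (-0.44), Itgam upstream (-0.45) and Itgax exons (-0.30) in WT CD11c-low, and at the Itga4 promoter (-0.09) and Itga6 (-0.20) in WT CD11c-high. The sign held at smaller size at the Itga5 region about 15 kb upstream (3.04 in WT CD11c-low, 3.76 in WT CD11c-high), the Itgax promoter (0.37) and the Itgax intron region (1.73). Within 100 kb of a start, 1 integrin peak was listed in WT CD11c-high against WT CD11c-low, the Itga4 region being farther. With the deposited mean count unscaled, 9 of 10 genes stood higher than in the basal table in the table of WT CD11c-low and KO CD11c-low and 5 in that of WT CD11c-high and KO CD11c-low, against 5 and 9 when scaled; Itgax, Itgal, Itga4, Itga5 and Itgb2 were higher and Itgav lower under both.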

Other observations

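Listed regions near the integrin genes that the lists give to other genes differed too, some higher and some lower. A region assigned to Cox6a2 and within 100 kb of Itgax (chr7:128207876-128210669) had 363.23 and 271.31 tags in WT CD11c-low against 57.49 and 75.89 in WT basal. Its counterpart had 400.83 and 394.47 tags in WT CD11c-high against 57.51 and 78.03 in WT basal. A region in intron 20 of Itga6 that the lists assign to Pdk1, the gene of a pyruvate dehydrogenase kinase, had 191.97 and 187.62 tags in WT CD11c-high against 49.52 and 53.78 in WT basal. An overlapping region had 67.47 and 76.2 tags in WT CD11c-low against 27.92 and 27.1 in WT basal. Near Itgb2, which has no listed peak of its own, a region assigned to Fam207a had 69.04 and 57.78 tags in WT CD11c-low against 8.21 and 3.25 in WT basal. Another near Itgb2, assigned to Mir1930, was lower, with 16.89 and 21.53 tags in WT CD11c-high against 107.04 and 73.81 in WT basal. Near Itgb5, a region assigned to Umps was also lower, with 6.28 and 8.37 tags in WT CD11c-low against 34.5 and 19.52 in WT basal.

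In the genotype comparison, the only listed region within 100 kb of an integrin gene lay near Itgal and is assigned to Sephs2, a selenophosphate synthetase gene. It had 167.47 and 105.3 tags in KO CD11c-low against 22.49 and 17.01 in WT CD11c-low, and 163.63 and 102.88 in KO CD11c-low against 32.0 and 20.3 in WT CD11c-high, the KO libraries being shared by both. A region assigned to Rapgef4, an exchange factor for Rap GTPases, near Itga6, had 27.57 and 19.09 tags in WT CD11c-high against 4.73 and 2.02 in WT CD11c-low. The same region had 0 and 4.76 tags in KO CD11c-low against 26.66 and 18.46 in WT CD11c-high. All of these regions were picked after their values were seen.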
